A study of Mus musculus with 5 samples.

Results

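Callosal neurons of L5 were compared with callosal neurons of L2/3 in the primary somatosensory cortex (S1) of the mouse. The comparison is the signal of each gene in the callosal L5 array minus its signal in the callosal L2/3 array, and it covers 11679 of 19938 genes. A gene entered if its signal reached the array's median in either of the 2 arrays. Both groups were wild-type mice of the ICR strain, in which Green RetroBeads, a tracer that axon terminals take up and carry back to the cell body, was injected into the contralateral S1 (cS1). The labeled neurons were cut out one by one by laser microdissection at PD24, about 1000 cells per layer according to the sample labels. Association neurons, labeled from the ipsilateral motor cortex (M1), had 1 array each for L2/3, L5, and L6b, and serve here as a second pair of layers. According to the methods, a plasmid for the red protein tdTomato had been electroporated *in utero* into L2/3 neurons of the mice in all 5 groups. How many animals, and of which sex, were behind each array is not stated in these sources.

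Pyramidal neurons of L2/3 and L5 are born at different times and keep different transcription programs. Neurons of L2/3 project within the cortex, to the same or the other hemisphere. L5 holds intratelencephalic neurons, which also cross the corpus callosum, next to larger subcerebral neurons that send axons to the brainstem and spinal cord. Callosal labeling in L5 therefore aims at the intratelencephalic class.

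The probe signals are on a log2 scale, and here signal means the log2 value minus the median of its array, which was 5.74 in both callosal arrays before subtraction. Layer difference means the signal in L5 minus the signal in L2/3, so that 1 is a 2-fold higher and -1 a 2-fold lower value in L5. Each group has a single array, so there is no replicate, no error, and no test, and the number of arrays limits the precision of every value. In such collections, fewer cells of a type and less RNA per cell cannot be told apart. The callosal arrays held the identical deposited value for 2770 of the compared genes (23.7%), and such ties made up 31.4% of the dimmest 1 of 5 equal groups of these genes and 11.9% of the brightest. The Y-linked gene *Eif2s3y*, which encodes a translation factor, had signals of 2.90 and 2.45 in callosal L2/3 and L5 and of -2.61 to -2.46 in the 3 association arrays. The X-inactivation RNA *Xist* had signals of -0.88 and -1.48 in the callosal arrays and of 1.47 to 2.55 in the association arrays. These genes thus set the callosal pair apart from the association arrays, and not the layers from each other.

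Most genes had similar signals in the 2 layers. The layer difference was within 1.5-fold for 81.4% of the genes compared, and its median was 0. In callosal L5, 515 genes (4.41% of those compared) had a signal at least 2-fold higher, and for 567 genes (4.85%) it was 2-fold or more lower. At least 4-fold, the counts were 122 (1.04%) and 130 (1.11%). From the dimmest to the brightest of the 5 groups, 4.71%, 3.64%, 8.31%, 16.4%, and 13.3% of the genes were 2-fold apart. The gene lists below were not matched for signal, which limits a comparison of their shares with those over all genes. Of the 515 higher genes, 114 had a signal below the array median in callosal L2/3, and of the 567 lower genes, 139 had one below the median in callosal L5. The sizes for these genes therefore rest on a dim signal on 1 side. Such genes also passed the filter only through the array where they were higher.

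**Figure D1:**
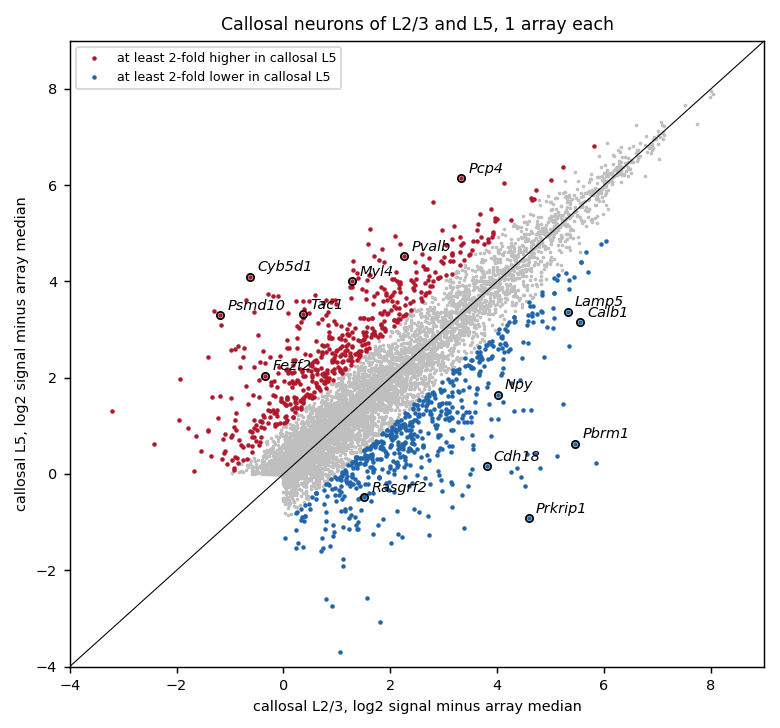
Signal (log2 minus the array's median) in callosal L2/3 (horizontal axis) and callosal L5 (vertical axis) of 11679 genes, 1 point per gene. Red points are the 515 genes that exceed 2-fold in L5 and blue points the 567 genes that exceed it in L2/3, gray points lie closer to the line of equal signal, and circled genes are named in the text.

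Among the genes known to mark L2/3, 6 were at least 2-fold lower in callosal L5 and none was at least 2-fold higher. The lower ones made up 33.3% of the list, beside 4.85% over all genes. All 18 genes of the list passed the filter, 12 stayed within 2-fold, 5 of the 18 had a layer difference above 0, and the median was -0.34, set against 0 over all genes. With the filter at the array median in both callosal arrays, or with genes of 1 probe set only, this median was -0.21. *Calb1*, which encodes the calcium buffer calbindin, had a signal of 5.55 in callosal L2/3 and 3.15 in callosal L5, which is 5.28-fold lower. *Lamp5*, a membrane protein gene of upper-layer neurons, went from 5.32 to 3.37. *Rasgrf2*, which encodes an exchange factor for Ras, stood at 1.51 in L2/3 and below the array median, at -0.48, in L5. The other members at least 2-fold lower were the netrin receptor gene *Unc5d* (layer difference -1.52), the adhesion gene *Nectin3* (-1.44), and *Pou3f2*, which encodes the transcription factor Brn2 (-1.26). The probe sets of *Unc5d* and *Pou3f2* did not match in size, since the second one gave -0.17 for *Unc5d* and 0 for *Pou3f2*. *Cux1* (-0.97) and *Stard8* (-0.96) lay just inside 2-fold. *Cux2*, a transcription factor gene often used to mark upper layers, differed by only -0.15, and *Lhx2* (0.50) and *Matn2* (0.40) had the highest layer differences of the list.

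Genes known to mark L5 went mostly the other way. Of the 11 genes of the broad L5 list, 10 passed the filter, 4 were at least 2-fold higher in callosal L5, 1 was at least 2-fold lower, and the median layer difference was 0.65. The shares were 40% and 10%, beside 4.41% and 4.85% over all genes. *Pcp4*, which encodes a small calmodulin-binding protein, was among the brighter genes, with 3.33 in callosal L2/3 and 6.14 in callosal L5, a 7.01-fold difference. *Myl4*, which encodes a myosin light chain, stood at 1.29 and 4.01. *Etv1*, the gene of the transcription factor Er81, stood at 0.31 and 2.19, and its second probe set gave a layer difference of 2.25. The sulfatase gene *Sulf2* had a layer difference of 1.64. The exception was *Rbp4*, which encodes a retinol carrier and gave its name to a Cre line for L5 neurons. Its signal was 2.20 in callosal L2/3 and 1.12 in callosal L5.

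Lists that divide L5 neurons by their targets had small medians. The intratelencephalic list, the class that callosal L5 neurons belong to, had 6 of 8 genes past the filter and a median of 0.02. Only *Etv1* and *Hsd11b1*, which encodes an enzyme that regenerates glucocorticoids, were at least 2-fold higher among these 6, and *Hsd11b1* was dim, at -1.15 in L2/3 and 0.31 in L5. These made up 33.3% of the intratelencephalic genes past the filter, beside 4.41% over all genes. The subcerebral list had 13 of 18 genes past the filter, 3 of them at least 2-fold higher, 1 at least 2-fold lower, and a median of 0.20. Its shares were 23.1% and 7.69%, beside 4.41% and 4.85% over all genes. The higher ones were *Fezf2*, the transcription factor gene that specifies subcerebral neurons (-0.34 in L2/3 and 2.04 in L5), *S100a10*, which encodes an annexin partner (0.73 and 2.68), and the opsin gene *Opn3* (0.95 and 2.18). *Cntn6*, a contactin gene, was lower (layer difference -1.04). *Bcl11b*, the gene of the transcription factor Ctip2, differed by 0.26, from 0.43 to 0.69, which is not 2-fold apart. *Crym* (0.21) and *Crim1* (0.24) differed as little.

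Few genes known to mark the other layers were 2-fold apart. Of the layer 4 list, 3 of 6 genes passed the filter. *Kcnh5*, which encodes a potassium channel, was at least 2-fold lower (4.93 in L2/3 and 3.06 in L5), and *Rorb*, the nuclear receptor gene that marks L4, had the same signal, 0.43, in both arrays. Of 7 corticothalamic genes and 7 L6b genes past the filter, none was at least 2-fold apart, and the medians were 0.16 and 0. *Tbr1*, a transcription factor gene of corticothalamic neurons, had the same signal, 4.36, in both callosal arrays. *Cplx3* and *Ccn2* (also named *Ctgf*), both L6b markers, had layer differences of 0.76 and -0.23, and *Kcnab1* lay below the median in both callosal arrays. The list of callosal projection neuron genes had 10 of 17 genes past the filter and none at least 2-fold apart. Its range ran from the small heat shock gene *Hspb3* (-0.86) to the secreted Wnt regulator gene *Dkk3* (0.85), with *Lmo4*, a transcriptional cofactor gene, at 3.25 in L2/3 and 3.35 in L5.

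**Figure D2:**
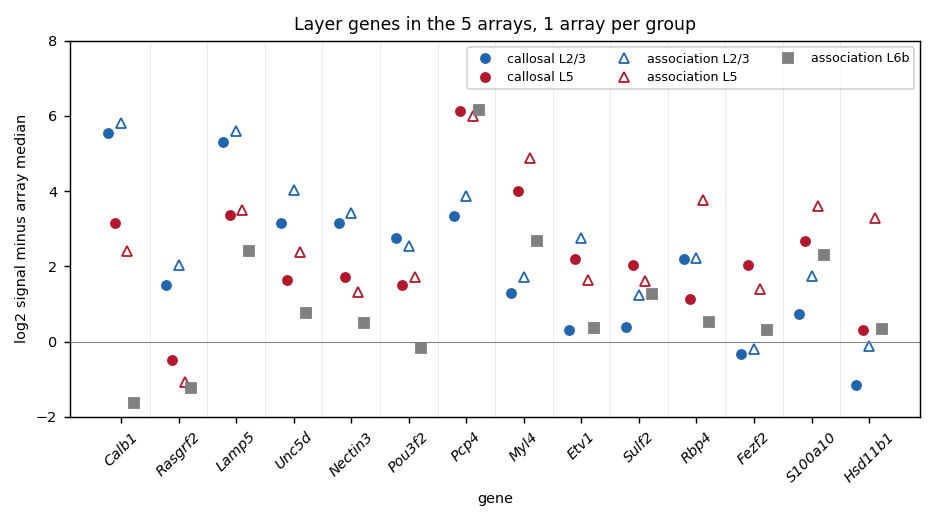
Vertical axis, signal as log2 minus the median of the array; horizontal axis, 14 layer genes. Every gene has 5 points, 1 from each array. Filled circles are callosal and open triangles association neurons, of L2/3 in blue and L5 in red, and gray squares association L6b. *Calb1* and *Lamp5* lie above 5 in both L2/3 arrays and below 4 in the others, *Pcp4* lies near 6 in both L5 arrays and in L6b, and *Etv1* and *Rbp4* order the layers differently in the 2 projections.

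The same layers of association neurons, on arrays not used in the callosal comparison, placed most of the leading layer genes in the same order. *Calb1* had signals of 5.82 in association L2/3 and 2.42 in association L5, *Lamp5* of 5.59 and 3.50, and *Rasgrf2* of 2.04 and -1.08. *Pcp4* stood at 3.86 and 5.99, *Myl4* at 1.71 and 4.88, *Fezf2* at -0.20 and 1.39, and *S100a10* at 1.75 and 3.61. For these 7 genes, both L2/3 arrays lay on 1 side and both L5 arrays on the other. The L2/3 list had a median of -0.82 in association neurons, with 8 members at least 2-fold lower and 0 past that size the other way, and the broad L5 list had a median of 0.51. *Etv1* differed: its signal was 2.75 in association L2/3 and 1.65 in association L5. *Rbp4* was higher in L5 of association neurons, at 3.76 against 2.23 in L2/3, opposite to its order in callosal neurons.

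**Figure D3:**
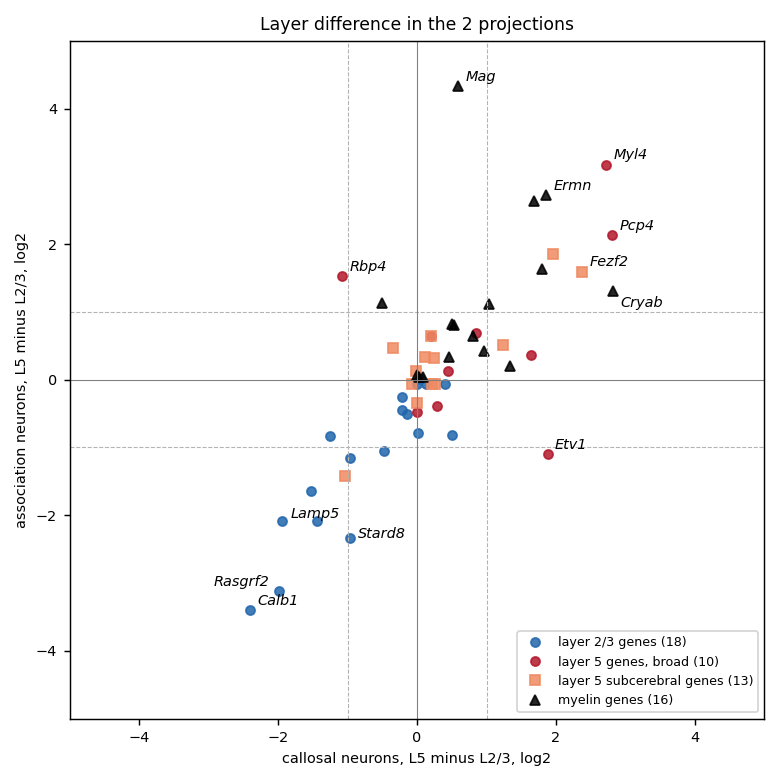
L5 minus L2/3 in log2 for callosal neurons (horizontal axis) and association neurons (vertical axis), 1 point per gene past the filter, for L2/3 genes (blue), broad L5 genes (red), L5 subcerebral genes (orange squares), and myelin genes (black triangles). Dashed lines mark 2-fold. No L2/3 gene is at least 2-fold higher in L5 in either projection, *Pcp4*, *Myl4*, and *Fezf2* are higher in both, and *Etv1* and *Rbp4* lie in opposite corners.

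Over all 11679 genes, however, the layer differences of the projections had few calls in common. In association L5, 374 genes (3.2%) had a signal at least 2-fold higher and 828 (7.09%) 2-fold or more lower. Of the 515 genes higher in callosal L5, 68 were also higher in association L5. That is 13.2% of the callosal and 18.2% of the association genes, beside 3.2% and 4.41% over all genes. Of the 567 lower genes, 115 were also lower, 20.3% and 13.9%, beside 7.09% and 4.85% over all genes. A further 72 of the 515 higher genes were at least 2-fold lower in association L5, more than the 68 that were higher in both. Of the 567 lower genes, 40 were at least 2-fold higher there, fewer than the 115 lower in both. Over all genes, 7.09% were lower and 3.2% higher in association L5. The remaining 375 higher and 412 lower genes were within 2-fold in association neurons.

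From the genes that were 2-fold apart the same way in both projections, examples were chosen after their values were seen. Higher in L5 beside *Myl4*, *Pcp4*, and *Fezf2* were *Abracl*, an actin-regulator gene (callosal 2.71, association 3.36), *Golga7*, whose product helps attach palmitate to Ras proteins (2.56 and 2.64), and *Tox*, which encodes a nuclear HMG-box protein (2.01 and 2.34). *Me1*, the gene of the cytosolic malic enzyme, had 2.57 and 1.99, and *Atp6v1f*, a subunit gene of the vesicular proton pump, was bright in all arrays and had 1.92 and 1.98. *Thrsp*, a lipogenic regulator gene, had 2.08 and 1.86, and the surface sialoprotein gene *Cd24a* 2.72 and 1.82. *Cnih3*, which encodes an auxiliary subunit of AMPA receptors, had a layer difference of 1.21 in callosal neurons and of 4.21 in association neurons.

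Lower in L5 in both projections beside *Calb1*, *Lamp5*, and *Rasgrf2* were the kinase gene *Pip5k1b* (callosal -3.39, association -2.35), which makes a phosphoinositide, *Cers6*, a ceramide synthase gene (-1.97 and -1.92), and *Cntfr*, the receptor gene for ciliary neurotrophic factor (-1.64 and -1.79). *Neurod1*, which encodes a proneural transcription factor, stood at 0.36 in callosal L2/3 and -1.52 in callosal L5, and at 0.44 and -1.18 in association neurons. *Grin2a*, the NMDA receptor subunit gene, went from 4.56 to 3.10 and from 4.45 to 2.35. *Sema3a*, which encodes a secreted axon repellent, went from 3.10 to 0.58 and from 2.92 to 1.52. Cell surface genes of this group also included *Chl1* (-1.51 and -2.25) and the synapse organizer genes *Lrrtm4* (-1.11 and -1.78) and *Il1rapl1* (-1.48 and -2.56).

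The promoter sequences of 4 layer genes with the same order in both projections are shown, as places where regulators of a layer program could bind. They are the 250 bases before the first start listed by RefSeq on build GRCm38.p6, written along the gene's strand, and capitals mark the GC box GGGCGG on either strand. *Pcp4* and *Fezf2* are higher in L5, *Lamp5* and *Rasgrf2* lower, and no window was given for *Calb1*. *Pcp4* lies at chr16:96467356-96467605 on the plus strand, *Fezf2* at chr14:12345866-12346115 on the minus strand, *Lamp5* at chr2:136052089-136052338 on the plus strand, and *Rasgrf2* at chr13:92131829-92132078 on the minus strand.
Pcp4: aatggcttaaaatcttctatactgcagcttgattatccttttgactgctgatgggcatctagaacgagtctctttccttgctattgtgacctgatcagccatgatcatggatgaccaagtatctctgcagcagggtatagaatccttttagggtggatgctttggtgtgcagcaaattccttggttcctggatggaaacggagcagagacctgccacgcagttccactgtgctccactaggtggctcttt
Fezf2: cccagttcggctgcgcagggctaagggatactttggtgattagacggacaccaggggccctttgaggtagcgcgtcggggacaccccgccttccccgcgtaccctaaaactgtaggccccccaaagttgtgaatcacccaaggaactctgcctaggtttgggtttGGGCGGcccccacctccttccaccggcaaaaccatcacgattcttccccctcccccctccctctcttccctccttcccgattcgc
Lamp5: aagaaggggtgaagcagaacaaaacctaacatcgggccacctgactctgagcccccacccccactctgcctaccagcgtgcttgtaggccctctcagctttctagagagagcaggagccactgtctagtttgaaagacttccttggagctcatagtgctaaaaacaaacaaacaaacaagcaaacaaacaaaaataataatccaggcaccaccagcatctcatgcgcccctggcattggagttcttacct
Rasgrf2: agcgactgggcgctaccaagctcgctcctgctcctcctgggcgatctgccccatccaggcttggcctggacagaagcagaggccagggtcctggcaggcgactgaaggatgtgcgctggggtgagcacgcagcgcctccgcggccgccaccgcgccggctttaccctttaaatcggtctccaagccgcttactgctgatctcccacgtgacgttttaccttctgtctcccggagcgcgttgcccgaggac
Only the window of *Fezf2* among these 4 held GGGCGG, and none held the TATA box letters TATAAA or the E-box CAGATG, which is a form bound by NeuroD proteins, on either strand. Of 9285 compared genes with a window, 57.2% held GGGCGG, 6.77% TATAAA, and 10.3% CAGATG. The shares were 51.8%, 7.14%, and 8.93% of the 56 windows of genes higher in L5 of both projections, and 55.1%, 3.37%, and 7.87% of the 89 windows of genes lower in both. These matches are letters in a window and not sites shown to be bound.

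The largest layer differences of callosal neurons belonged to other genes. Among the 15 highest, 13 had a callosal L2/3 signal below the array median. *Cyb5d1*, which encodes a protein with a cytochrome b5 domain, led with -0.62 in L2/3 and 4.10 in L5, and its second probe set gave 5.36. *Psmd10*, the gene of the proteasome assembly factor gankyrin, stood at -1.18 and 3.30, the nucleotidase gene *Nt5c3* at -0.70 and 3.62, and the zinc-finger gene *Zfp949* at -1.17 and 3.10. Next came the phosphatase gene *Dusp22* (layer difference 4.02), the Polycomb gene *Phc3* (3.91), the ceramide synthase gene *Cers2* (3.91), the kinase regulator gene *Mob2* (3.88), and the prefoldin-like gene *Uxt* (3.80). The second probe set of *Phc3* gave only 0.09. *Lipa*, which encodes the lysosomal acid lipase, had 3.51 and the interferon receptor gene *Ifnar2* 3.36. Of these 15 genes, 4 were also at least 2-fold higher in association L5. In 6 of the 15 callosal L5 stood at least 2-fold above each of the other 4 arrays, and in 5 callosal L2/3 stood at least 2-fold below each of them.

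Among the 15 lowest, callosal L2/3 was the array that stood apart in 11, at least 2-fold above each of the others. *Prkrip1*, which encodes a splicing-related protein, had the lowest layer difference, with 4.59 in L2/3 and -0.92 in L5, but 3.59 to 4.48 in the association arrays. *Pbrm1*, the gene of a chromatin remodeling subunit, stood at 5.46 and 0.63, but the layer differences of its 3 probe sets ran from -4.83 to 0, with a median of -0.69. *Cep43* (layer difference -4.78), a centrosomal gene, *Klhl32* (-4.68), and the transcription factor subunit gene *Taf1a* (-4.49) had association signals at or below 0.09. The second probe set of *Klhl32* gave a layer difference of -0.13. *Bloc1s3* (-4.29), a gene of lysosome-related organelles, *Sprr1a* (-4.14), which is known from injured sensory neurons, and the zinc-finger gene *Zfp652* (-3.77) also stood out in callosal L2/3. *Trps1*, which encodes a GATA-type repressor, was low in L5 of both projections. Its signals were 2.73 in L2/3 and -1.26 in L5 of callosal neurons, and 2.33 and -0.89 in association neurons. Its second probe set gave a layer difference of 0.15.

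Some of the leading genes had probe sets that disagreed strongly. *Dnajc13*, which encodes an endosomal chaperone, had 15 probe sets whose layer differences ran from -4.75, the value of the brightest 1, to 6.60. The 12 probe sets of the phosphatase gene *Ptpn3* ran from -5.16 to 4.37, around a value of 3.47 for the brightest. Among the higher genes, 63 had several probe sets, and in 20 of these all were at least 2-fold higher. The lower genes likewise had 63, of which 19 were at least 2-fold lower in all of them. A probe set at least 2-fold in the opposite direction was found in 7 and 4 genes.

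The other 3 arrays were placed on either side of the midpoint between the callosal signals. For 216 of the 515 higher genes (41.9%) all 3 lay on the side of callosal L2/3, and for 84 (16.3%) all 3 lay on the side of callosal L5. Of the 567 lower genes, 270 (47.6%) had all 3 on the side of callosal L5 and 69 (12.2%) all 3 on the side of callosal L2/3.

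Genes at or above the array median in both callosal arrays can still be dim on 1 side. Among them, *Ptpn3* and *Fam50a* (0.24 in L2/3 and 3.59 in L5) led the higher ones. They were followed by the proteasome activator gene *Psme3* (layer difference 3.22), the selenoprotein gene *Selenoh* (3.19), and the cyclophilin gene *Ppih* (3.12). After these stood *Tlcd4* (3.12), *Fam98a* (3.11), the small GTPase gene *Rras* (3.04), and *Tac1*. The 4 probe sets of *Ppih* all lay between 2.48 and 3.12. In L2/3, *Psme3* (0.37), *Rras* (0.38), and *Tac1* (0.37) lay near the median, and *Selenoh* (1.59) and *Ppih* (1.30) lay higher. On the lower side, *Mras*, another GTPase gene, went from 4.63 to 1.32, with -0.84 from its second probe set, and the ribosome biogenesis gene *Brix1* from 3.49 to 0.

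Interneuron genes were measurable in both collections. Of 21 GABAergic genes, 16 passed the filter, 2 were at least 2-fold higher, 1 was at least 2-fold lower, and the median was 0. The shares were 12.5% and 6.25%, beside 4.41% and 4.85% over all genes. *Tac1*, the gene of substance P, stood at 0.37 in callosal L2/3 and 3.32 in callosal L5, and at 0.18 and 1.02 in association neurons. *Pvalb*, the parvalbumin gene of fast-spiking interneurons, stood at 2.26 and 4.52, and at 4.57 and 4.41 in association neurons, so callosal L2/3 was the low array of these 4. *Npy*, which encodes neuropeptide Y, stood at 4.01 and 1.65 but at 4.07 and 4.35 in association neurons. The general markers differed less, with layer differences of -0.12 for *Gad1* and 0.46 for *Gad2*, the genes of the GABA-making enzymes, -0.35 for the vesicular transporter gene *Slc32a1*, and 0.42 for the somatostatin gene *Sst*. The summed linear signal of the 16 genes, in units of the array median, was 64.3 in callosal L2/3 and 84.6 in callosal L5. The part of interneuron RNA in other layer differences was not tested.

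The myelin list had the largest median of the lists for other cell types. Of 18 myelin genes, 16 passed the filter, 6 were at least 2-fold higher in callosal L5 and 0 lower by that much, and the median was 0.69. The higher share was 37.5%, beside 4.41% over all genes. *Cryab*, a small heat shock protein gene of oligodendrocytes, stood at 0.80 and 3.62, and the cytoskeletal gene *Ermn* at -1.14 and 0.72. *Ugt8a*, which encodes the enzyme that makes galactosylceramide, stood at 0.35 and 2.15, and *Mobp*, a myelin structural gene, at 0.63 and 2.32. *Cldn11* (1.34) and *Cnp* (1.03) completed the 6, while *Mbp*, the myelin basic protein gene, had 0.80 and *Mag* 0.59. The transcription factor genes of the lineage, *Sox10* and *Myrf*, had layer differences of 0.03 and 0. In association neurons 7 of the 16 were at least 2-fold higher in L5 and the median was 0.81. The summed linear signal of the list, in units of the array median, was 26.3 in callosal L2/3 and 55.6 in callosal L5, and its part in the other layer differences was not tested.

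Lists for the remaining cell types had medians nearer to 0. Astrocyte genes had 14 members past the filter and a median of 0.03, with the calcium-binding gene *S100b* higher (3.37 and 4.44) and the bicarbonate transporter gene *Slc4a4* lower (2.14 and 1.08). *Slc1a2*, the glial glutamate transporter gene, was bright and differed by 0.04, and *Aqp4* and *Gfap* lay below the median in both callosal arrays. Of 11 microglia genes, *Aif1* was at least 2-fold higher, at -0.13 and 1.32, while *Tyrobp* (3.52 and 2.36) and *C1qc* (2.09 and 0.93) were at least 2-fold lower, and the median was -0.03. None of 7 endothelial and mural genes (median 0.26) or of 5 oligodendrocyte precursor genes (median -0.14) was 2-fold apart. Of the meningeal and fibroblast genes, 4 passed the filter (median 0.10), and *Ptgds*, the prostaglandin D synthase gene, was the 1 at least 2-fold higher (0.06 and 1.56).

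**Figure D4:**
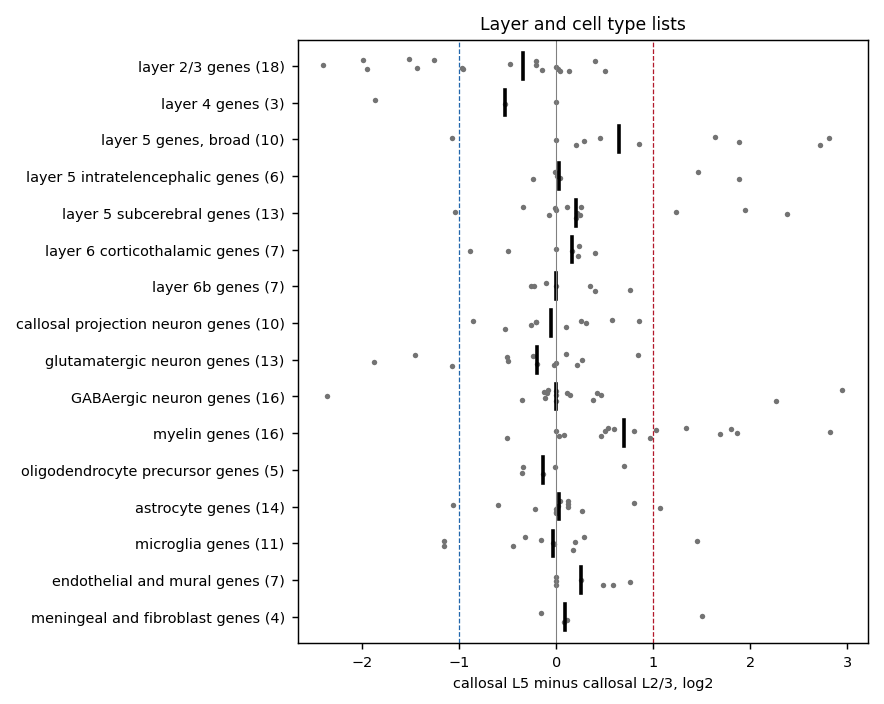
Layer difference of callosal neurons (log2, horizontal axis) for genes of 16 layer and cell type lists (vertical axis, number of genes past the filter in parentheses), 1 point per gene, with black bars at the list medians and dashed lines at 2-fold. The medians of the broad L5 genes (0.65) and the myelin genes (0.69) lie farthest to the right, and those of the L4 (-0.53) and L2/3 genes (-0.34) farthest to the left.

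Genes of glutamatergic neurons, the transmitter class of both groups, had a median slightly below 0. Of the 13 past the filter, 3 (23.1%, beside 4.85% over all genes) exceeded 2-fold, all of them lower in L5 (median -0.20). These were *Neurod1*, *Grin2a*, and *Slc17a6*, the gene of the second vesicular glutamate transporter (1.33 and 0.26). *Camk2a*, the gene of the CaMKII alpha subunit and a member of the list, was bright in both (5.41 and 4.91). Among 15 ionotropic glutamate receptor genes, *Grin2a* was lower and *Cnih3* higher, and the median was 0. The metabotropic receptors split, with *Grm3*, coupled to inhibitory G proteins, at 2.65 and 3.96, and *Grm5*, coupled to calcium release, at 3.67 and 2.36. In association neurons the differences of these receptor genes were -0.35 and -0.15.

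GABA receptor subunit genes included a pair that was at least 2-fold higher, 20% of those past the filter, beside 4.41% over all genes. *Gabrg3*, which encodes a gamma subunit, stood at 1.29 in callosal L2/3 and 3.89 in callosal L5, and at 2.39 and 2.33 in association neurons. *Gabrb1* stood at 0.62 and 1.82, with the opposite order in association neurons (2.32 and -0.58). The alpha subunit genes *Gabra3* (0.92) and *Gabra5* (0.88) lay just inside 2-fold. Of 30 neuromodulator receptor genes past the filter, *Chrm2*, the gene of an inhibitory muscarinic receptor (-0.23 and 1.91), and the VIP receptor gene *Vipr1* (0.82 and 2.09) reached 2-fold, both higher in L5. Their share was 6.67%, beside 4.41% over all genes, but *Chrm2* passed the filter only through its L5 signal. The second probe set of *Vipr1*, however, gave a layer difference of 0. *Chrm2*, too, was ordered the other way in association neurons, at 2.17 and -0.38.

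Ion channel genes differed in single members. Of 36 voltage-gated potassium channel genes past the filter (median 0), *Kcnip3*, which encodes a calcium sensor of Kv4 channels, was higher (0.73 and 2.50). Lower were *Kcnab3*, a beta subunit gene related to *Kcnab1* (2.14 and 0.19), *Kcnh5*, and *Kcnip4* (3.08 and 1.97). *Kcnab3* lay between 0.01 and 0.16 in the association arrays, so callosal L2/3 was its only high array. *Kcnh5* and *Kcnip4* were also lower in association L5, with layer differences of -1.37 and -2.32. The shares of the list were 2.78% higher and 8.33% lower, beside 4.41% and 4.85% over all genes. None of 21 other potassium and HCN channel genes and none of 13 calcium channel genes was 2-fold apart, with *Cacna2d3*, an auxiliary subunit gene, closest at -0.96. Sodium channel genes were split, since the beta subunit genes *Scn2b* (1.86 and 3.60) and *Scn3b* (1.18 and 2.57) were higher and the intracellular modulator genes *Fgf13* (3.50 and 2.37) and *Fgf14* (3.68 and 2.53) were lower. Each pair was 20% of the 10 genes past the filter, beside 4.41% higher and 4.85% lower over all genes. In association neurons *Scn2b* differed by 0.03, and *Scn3b* was lower in L5 (3.46 and 0.10).

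Surface molecules of axons and synapses were at least 2-fold apart in few cases. For cadherins and protocadherins, 8.33% had a signal 2-fold or more above that in L2/3 and 12.5% 2-fold or more below, beside 4.41% and 4.85% over all genes. The genes behind these shares were not matched for signal. The shares were 5% and 5% for semaphorins and their receptors, 0 and 3.45% for the Eph, ephrin, Slit, Robo, and netrin families, and 0 and 7.41% for synaptic and contactin adhesion genes. *Cdh9*, a classic cadherin gene, had a signal of -0.73 in callosal L2/3 and 2.62 in callosal L5, and of -1.29 to -0.79 in the 3 association arrays. *Cdh18* went from 3.80 to 0.16, and its second probe set gave -1.34. Of the 24 cadherin and protocadherin genes past the filter, 2 were at least 2-fold higher and 3 lower (median -0.08), the others being *Pcdh19* (1.16), *Cdh7* (-1.41), and *Cdh12* (-1.28). *Cdh7* and *Cdh12* were at least 2-fold lower in association L5 also, at -1.08 and -1.68. Among 20 semaphorin, plexin, and neuropilin genes, *Sema3a* was lower and *Sema4d*, a membrane-bound semaphorin, was higher (0.60 and 2.76), although the second probe set of *Sema4d* gave 0.20. Of 29 genes of the Eph, ephrin, Slit, Robo, and netrin families only *Unc5d* was 2-fold apart, with *Slit3* (-0.98) just inside. Of 27 synaptic and contactin adhesion genes, *Lrrtm4* and *Cntn6* were lower and none was at least 2-fold higher.

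Neuropeptide and granin genes other than *Tac1* and *Npy* included *Adcyap1*, the PACAP gene, which was lower (1.66 and 0.15), and *Chga*, the chromogranin A gene, which was higher (1.88 and 3.03). In association neurons their layer differences were 0.08 and -0.09. *Adcyap1* lay between -0.04 and 0.22 in the association arrays, so callosal L2/3 was its only high array. The median over 19 neuropeptide and granin genes was -0.11. Of 14 EF-hand calcium-binding genes, *Pvalb*, *S100a10*, and *S100b* were higher and *Calb1* and *Necab1* (1.80 and 0.54) lower. The shares were 21.4% and 14.3%, beside 4.41% and 4.85% over all genes. Among 12 RGS genes, which limit G protein signaling, *Rgs20* (-1.33) and *Rgs7* (-1.20) were lower, none was at least 2-fold higher, and the median was -0.22. The lower share was 16.7%, beside 4.85% over all genes. *Rgs4*, the brightest of those named here, went from 5.87 to 5.21. Of 31 vesicle release genes, *Sv2a*, a synaptic vesicle protein gene (3.33 and 4.75), and *Syt11* (3.82 and 4.82) reached 2-fold, and no member did so in the other direction. Their share was 6.45%, beside 4.41% over all genes.

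Cholesterol synthesis genes leaned toward callosal L5. Of 15 past the filter, 5 exceeded 2-fold, all of them higher in L5, and the median was 0.42. That share was 33.3%, beside 4.41% over all genes. *Msmo1*, which encodes a sterol oxidase, stood at 0.26 and 2.62, *Insig1*, the gene of a sterol sensor partner, at 2.18 and 3.94, *Fdft1*, squalene synthase, at 2.17 and 3.87, and *Hmgcs1*, HMG-CoA synthase, at 2.68 and 4.26. *Idi1*, an isomerase gene of the same route, had 1.11. Both probe sets of *Fdft1* gave similar layer differences, 1.68 and 1.70. In association neurons the list median was -0.18, with 1 member at least 2-fold higher, and *Msmo1*, *Fdft1*, and *Hmgcs1* had values of -0.35, -0.67, and -0.24.

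Genes of energy supply and protein turnover differed little as groups. Of 78 oxidative phosphorylation genes past the filter, 4 were at least 2-fold higher in L5 and none was lower by that much (median 0.09). This share of 5.13% was near the 4.41% over all genes. The 4 genes were *Ndufv3* (3.04 and 4.76), *Ndufa3* (2.64 and 4.26), *Ndufa10* (3.89 and 5.50), and *Ndufs8* (2.48 and 4.05). In association neurons their layer differences were 0.53, 0.88, -0.25, and 0.54, none of them 2-fold. None of 13 glycolysis genes was 2-fold apart, and 10 of them were higher by some amount (median 0.19), led by the neuronal enolase gene *Eno2* (0.89). Of 57 ribosomal protein genes, *Rplp0* (4.66 and 5.70) and *Rps20* (5.81 and 6.82) reached 2-fold, a share of 3.51%, with a median of 0.02. Proteasome genes had members on both sides, with *Psmd10*, *Psmc4* (2.72 and 4.48), and *Psmb4* (5.23 and 6.37) higher and *Psmd6* (4.82 and 3.39) and *Psmb2* (2.92 and 1.77) lower, and a median of 0.09 over 37 genes. Among 24 heat shock and chaperonin genes *Cct2* (3.69 and 4.92) was the 1 at least 2-fold higher (4.17%), and the median was 0.15.

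**Figure D5:**
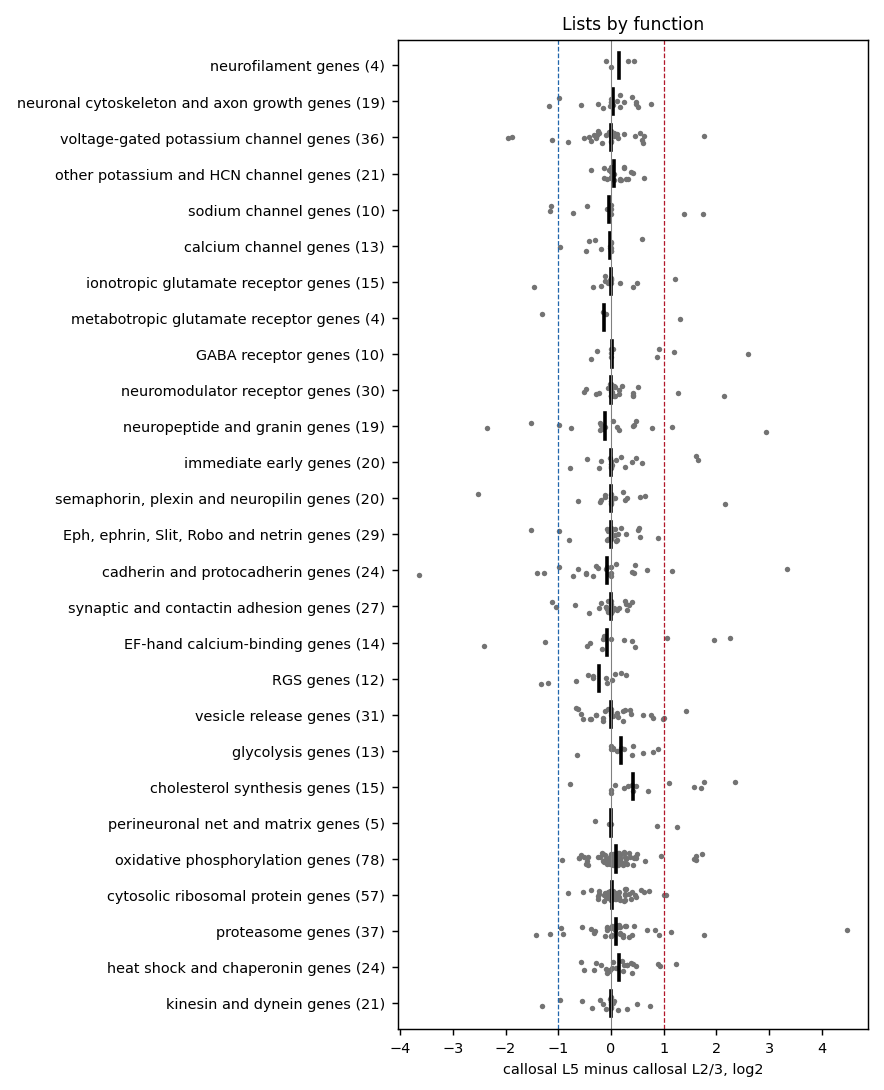
Layer difference of callosal neurons (log2, horizontal axis) for genes of 27 lists by function (vertical axis, number of genes past the filter in parentheses), 1 point per gene, with black bars at the list medians and dashed lines at 2-fold. The median of the cholesterol synthesis genes (0.42) lies farthest to the right and that of the RGS genes (-0.22) farthest to the left, and single members such as *Psmd10* (4.48) and *Cdh18* (-3.64) lie far from their lists.

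The neurofilament genes, which encode filaments of thick axons, were not 2-fold apart in any of 4 members, with *Nefm* at 5.09 and 5.41, *Nefl* at 4.67 and 4.58, and *Nefh* at 0.69 and 1.12. Of 19 neuronal cytoskeleton and axon growth genes, only *Dcx*, the doublecortin gene of young neurons, was at least 2-fold apart, at 1.37 and 0.19. *Dynll2*, a dynein light chain gene, was the 1 of 21 motor genes to differ by 2-fold (5.06 and 3.76). Of 20 immediate early genes, *Dusp1* (0.28 and 1.93) and *Jun* (-0.04 and 1.58) were the 2 past 2-fold, both higher in L5, and the median was 0. Their share was 10%, beside 4.41% over all genes, and *Jun* passed the filter only through its L5 signal. In association neurons the layer differences of *Dusp1* and *Jun* were 0.03 and 0.15. Of 5 perineuronal net and matrix genes, *Ptprz1*, a phosphatase gene shared with glial precursors, was higher (-0.90 and 0.35), but it passed the filter only through its L5 signal. Among the housekeeping genes, *Rplp0* was the 1 of 10 at least 2-fold apart, and the median was 0.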

How the data were processed

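Labeled neurons of S1 were collected into 5 groups, and each was hybridized to 1 GeneChip Mouse Gene 1.0 ST array after cDNA amplification. The authors deposited log2 signals per probe set, with 2 decimals. Affymetrix Expression Console is the tool in the submitters' processing notes, with the way of summarizing probes not given in the sources used here. According to the methods, raw signals were log-transformed, normalized globally, and centered. Whether the deposited signals hold the normalization and the centering is not stated. That the scale is log2 was read from the range of the values. Of 35556 probe sets, 21789 had 1 gene symbol and 1621 several in a platform annotation, and 21698 were found by Entrez identifier among current genes, with 0 symbols to update. Each array's median was subtracted, and the probe set with the highest mean represented a gene (Python 3.11.15, pandas 2.3.3). Steps were tested on simulated data. Probe sets with no single symbol were not used to name genes. At or above the median there were 6187 of these, 9.6% at least 2-fold higher and 11.7% lower.

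The genes compared, the 47 lists, the naming rule, and the alternatives were chosen with earlier results of these data known. Named were the 15 highest and 15 lowest genes, the 10 highest and 10 lowest among genes at or above the median in both callosal arrays, up to 4 members per list, and the L6b markers with *Camk2a*, although not all are printed. The naming rule passed over predicted genes, pseudogenes, small RNAs, and olfactory and vomeronasal receptors. Further members and the genes shared with association neurons were chosen after their values were seen.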

Additional observations from a re-analysis of the deposited data

Results flagged for a closer look

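Some named genes were at least 2-fold higher in L5 of callosal neurons and at least 2-fold lower in L5 of association neurons, or the reverse. With 1 array per group these differences between the projections were not tested. The callosal and association arrays also differed in their *Eif2s3y* and *Xist* signals, so projection and source animals cannot be told apart. Given as the callosal minus the association layer difference in log2, they were 8.88 for *Uxt*, 6.29 for *Fam50a*, 5.56 for *Phc3*, 4.78 for *Rras*, 4.75 for *Scn3b*, 4.69 for *Chrm2*, 4.36 for *Tlcd4*, 4.10 for *Gabrb1*, and 2.98 for *Etv1*. In the opposite sense they were -6.40 for *Kif1c*, -5.83 for *Dennd5b*, and -2.61 for *Rbp4*. Second probe sets gave smaller callosal layer differences for *Kif1c* (-0.70), *Dennd5b* (0), and *Phc3* (0.09). For *Uxt* (3.79) and *Etv1* (2.25) they gave values at or above 2-fold in the same direction. The *Uxt* signal was high in callosal L5 (3.70) and association L2/3 (3.90) and at or below -0.10 in the other 3 arrays.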

How the results depend on the processing

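The counts under 4 other scalings (values as deposited, 75th percentile, quantile, and named probe sets only) all stayed within 1.5 times of those given. With the filter at the median in both callosal arrays, the counts past 4-fold were 73 higher and 70 lower genes. With the filter at the 75th percentile in either callosal array, the median layer difference was -1.48 for L2/3 genes, 1.64 for broad L5 genes, and 1.19 for myelin genes, over fewer genes. This filter lets a gene in through the array where it is high, which can enlarge such medians. The L2/3 median was -0.21 with the filter at the median in both callosal arrays and with genes of 1 probe set only. The broad L5 median was 0.45 with no filter on dim genes and with genes of 1 probe set only. With the filter at the median in both callosal arrays it was 0.65. The myelin median was 0.59 with no filter on dim genes and 0.56 with the filter at the median in both callosal arrays. With the mean over the probe sets of a gene, *Dnajc13* (1.97) and *Ptpn3* (-0.19) changed sign, and 23 others of 243 named genes moved by more than 0.25. Leaving out tied genes moved the medians of 5 of 46 lists by more than 0.25, among them that of the GABA receptor genes from 0.02 to 0.88. No paired analysis was possible because each group has 1 array. Dim signals and tied values limit the differences of the weakly expressed genes.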
